A study of Mus musculus with 8 samples.

Results

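A set of 9 genes used as markers of neutrophil granules and of the calprotectin S100 proteins was followed across mouse lung: S100a8, S100a9, Camp, Ngp, Ltf, Mpo, Elane, Prtn3 and Fpr1. The members were the array's probe sets that the platform annotation assigns to 1 of these 9 genes alone. It named 8 of the 9 genes, through 9 probe sets, 2 of them for Mpo, among 10833 probe sets with a single gene and 8251 such genes in all. Fpr1, the receptor of formylated bacterial peptides, had no such probe set and was skipped. Whole lungs had been frozen, and their total RNA had been read on 8 oligonucleotide arrays, 2 in each of 4 groups. The groups were C3H/HeJ mice in filtered air, C3H/HeJ mice in ozone, C3H/HeOuJ mice in filtered air and C3H/HeOuJ mice in ozone. C3H/HeJ carries a defective endotoxin receptor, and C3H/HeOuJ is the related substrain with the intact receptor. The labels give 72 h of exposure for C3H/HeOuJ only and give no ozone concentration, age or sex. The 2 arrays of a group are named 1a and 1b, and nothing says that they came from separate animals, so the p-values cover array-to-array spread alone, and this may be purely technical.

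Neutrophils are short-lived phagocytes made in the bone marrow, and a lung holds many of them in its capillaries. Their granules are filled in order as the cell matures. Azurophil granules come first and hold myeloperoxidase (Mpo), neutrophil elastase (Elane) and proteinase 3 (Prtn3). Specific granules follow, with lactoferrin (Ltf), the cathelicidin precursor (Camp) and neutrophilic granule protein (Ngp). S100a8 and S100a9 pair as calprotectin, the main cytosolic protein of the mature cell, and monocytes make them too. Granule mRNAs are therefore mostly those of marrow precursors, whereas calprotectin mRNA persists in mature cells. In whole-lung RNA, fewer cells of a type and less RNA per cell cannot be told apart.

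Several of the genes are neighbours on the chromosomes. S100a8 and S100a9 are next to each other on chromosome 3 with no protein-coding gene between them, and so are Prtn3 and Elane on chromosome 10. Camp, Ngp and Ltf share chromosome 9, with 8 and 20 protein-coding genes between neighbours, and Mpo is on chromosome 11. The 250 bases before the RefSeq start are shown for 5 members, the calprotectin pair and the 3 granule genes Ltf, Elane and Prtn3. The values of S100a8, S100a9, Ltf and Elane are set side by side in the results, and Prtn3 is the neighbour of Elane. The sequences come from RefSeq's mouse assembly GRCm38.p6, which is not a C3H genome. The windows are chr3:90668821-90669070 for S100a8 (plus strand), chr3:90695722-90695971 for S100a9 (minus strand) and chr9:111019042-111019291 for Ltf (plus strand). Those of Elane and Prtn3 are chr10:79886062-79886311 and chr10:79879417-79879666, both on the plus strand. Each runs 5′ to 3′ along its gene, and capitals mark matches of either strand to GAGGAAGT, a core of sites bound by the myeloid factor PU.1, or to TTNNGNAA, a core of C/EBP sites.
S100a8: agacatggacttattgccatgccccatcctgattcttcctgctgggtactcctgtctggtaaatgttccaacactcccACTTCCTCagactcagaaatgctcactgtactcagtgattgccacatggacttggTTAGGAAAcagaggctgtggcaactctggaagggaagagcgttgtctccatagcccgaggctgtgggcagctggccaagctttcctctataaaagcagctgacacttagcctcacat
S100a9: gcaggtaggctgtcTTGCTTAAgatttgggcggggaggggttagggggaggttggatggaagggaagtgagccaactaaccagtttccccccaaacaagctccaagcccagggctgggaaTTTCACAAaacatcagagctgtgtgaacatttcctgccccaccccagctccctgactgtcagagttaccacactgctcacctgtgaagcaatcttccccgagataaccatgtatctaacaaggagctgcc
Ltf: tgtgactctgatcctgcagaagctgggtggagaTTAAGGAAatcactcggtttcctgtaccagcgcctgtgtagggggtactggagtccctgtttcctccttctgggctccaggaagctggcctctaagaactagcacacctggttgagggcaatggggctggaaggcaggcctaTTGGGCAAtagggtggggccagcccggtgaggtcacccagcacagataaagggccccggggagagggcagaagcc
Elane: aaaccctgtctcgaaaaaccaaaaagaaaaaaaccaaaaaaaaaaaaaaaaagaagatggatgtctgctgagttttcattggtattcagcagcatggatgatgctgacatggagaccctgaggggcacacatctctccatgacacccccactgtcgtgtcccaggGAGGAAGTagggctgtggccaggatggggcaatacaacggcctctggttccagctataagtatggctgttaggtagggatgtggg
Prtn3: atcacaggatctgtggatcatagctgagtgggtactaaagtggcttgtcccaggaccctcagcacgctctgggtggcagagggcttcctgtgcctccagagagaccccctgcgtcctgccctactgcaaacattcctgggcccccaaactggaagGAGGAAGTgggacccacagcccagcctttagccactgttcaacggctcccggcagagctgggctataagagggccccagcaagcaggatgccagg
GAGGAAGT was present in 4 of the 9 members' windows, those of S100a8, Mpo, Elane and Prtn3, which include all 3 azurophil genes, and in 2.44% of all 32851 RefSeq windows of this length. In Elane the match began 85 bases before the start and in Prtn3 95 bases before it, while in Mpo, whose window is not shown, it began 224 bases before it. TTNNGNAA was found in 5 of the 9 windows, those of S100a8, S100a9, Ngp, Ltf and Fpr1, against 36.8% of all windows. The letters searched were chosen after the windows had been seen, and no match of the one overlapped a match of the other in these windows. A match describes the sequence and shows no binding.

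By group means in each strain, calprotectin transcripts were lower, and lactoferrin and elastase transcripts higher, in ozone than in air. No member passed an adjusted p of 0.05 in any comparison. S100a8 lay below every air array on all 4 ozone arrays, while Ltf and Elane lay above every air array on all 4. The air and ozone arrays of S100a9 overlapped in C3H/HeOuJ. The sizes were modest, with a mean log2 change over the strains of -0.53 (SE 0.11) for S100a8, 0.50 (SE 0.15) for Ltf and 0.42 (SE 0.19) for Elane, on the log2 scale of deposited intensities. Camp was higher in ozone in C3H/HeJ alone by its values, and its 2 ozone effects had a difference of -0.96 (SE 0.31).

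**Figure D1:**
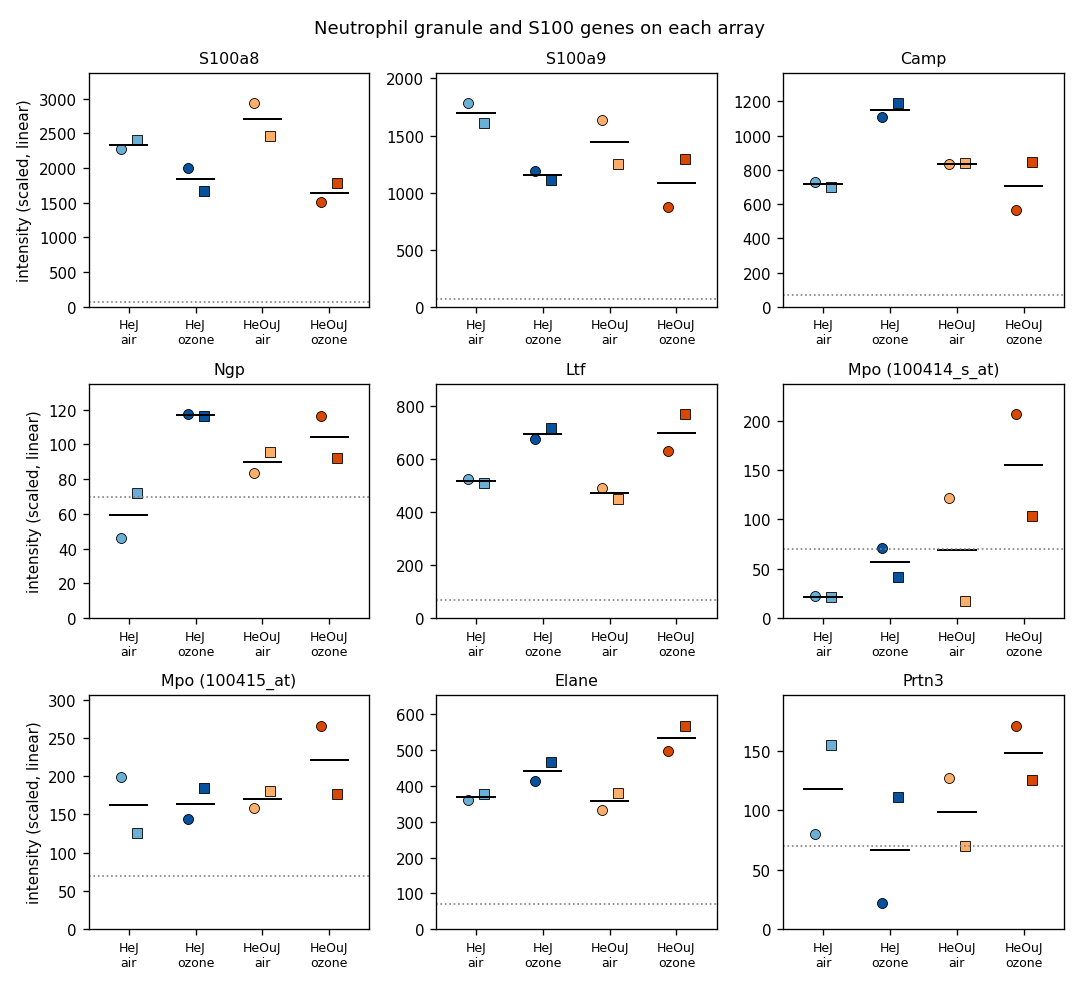
Deposited intensity (linear scale) of the 9 member probe sets on each of the 8 arrays. Circles are arrays 1a, squares 1b, black bars the mean of 2 arrays, and the dotted line the floor of 69.6; S100a8 lies lower and Ltf and Elane lie higher on all 4 ozone arrays than on any air array.

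S100a8, the smaller calprotectin subunit, read 2269 and 2397 on the C3H/HeJ air arrays and 2008 and 1664 on the C3H/HeJ ozone arrays. In C3H/HeOuJ it read 2936 and 2468 in air and 1506 and 1779 in ozone. The air and ozone arrays did not overlap in either strain, and the 2 ozone groups overlapped each other. In limma's fit across all probe sets the log2 change with ozone was -0.35 (SE 0.16, adjusted p 1) in C3H/HeJ and -0.72 (SE 0.16, adjusted p 0.0938) in C3H/HeOuJ, the latter a 1.64-fold lower level in ozone. Averaged over the strains it was -0.53 (SE 0.11, 95% interval -0.79 to -0.28, adjusted p 0.249), and it was lower on 4 of 4 ozone arrays than on any of the 4 air arrays. The difference between the strains' ozone effects was -0.37 (SE 0.22, adjusted p 0.587). From highest to lowest, the means (± SD, n = 2) were 2702 ± 331 in C3H/HeOuJ air, 2333 ± 91.0 in C3H/HeJ air, 1836 ± 243 in C3H/HeJ ozone and 1643 ± 193 in C3H/HeOuJ ozone. The strain differences were 0.21 (SE 0.16) in air, where the 2 groups' arrays did not overlap, and -0.16 (SE 0.16) in ozone, and neither passed.

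S100a9, the partner of S100a8 in calprotectin, read 1783 and 1609 in C3H/HeJ air and 1192 and 1112 in C3H/HeJ ozone. It read 1635 and 1249.9 in C3H/HeOuJ air and 877 and 1293 in C3H/HeOuJ ozone. The C3H/HeJ groups did not overlap, and in C3H/HeOuJ the higher ozone array lay above the lower air array. The log2 change with ozone was -0.56 (SE 0.22) in C3H/HeJ, -0.42 (SE 0.22) in C3H/HeOuJ and -0.49 (SE 0.15, adjusted p 0.4) over both. The mean levels ran from C3H/HeJ air through C3H/HeOuJ air and C3H/HeJ ozone to C3H/HeOuJ ozone, and of these neighbours only C3H/HeOuJ air and C3H/HeJ ozone did not overlap. Over the 8 arrays S100a8 and S100a9 had a Pearson r of 0.80 and a Spearman rho of 0.71, and r was 0.60 without the 2 arrays farthest from the median of S100a8. This r is a description over arrays that share their groups. With the group means taken out it was 0.78.

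S100a8 and S100a9 RNA is also found in monocytes, and the summed intensity of 11 monocyte and macrophage markers on the array, of 14 listed, was lower on ozone arrays in each strain, in C3H/HeOuJ through 1 gene, Chil3. It was 17073 to 17464 in C3H/HeJ air and 15226 to 16135 in C3H/HeJ ozone, and 21174 to 24457 in C3H/HeOuJ air and 18374 to 20900.2 in C3H/HeOuJ ozone. Without Chil3, a gene left out after its values were seen, the sum was 14335 to 14404 and 13497 to 14073 in C3H/HeJ air and ozone, and 16195 to 17425 and 15915 to 18181 in C3H/HeOuJ, where it overlapped. One of the 11, the scavenger receptor Marco, lay at or below the floor on all 8 arrays. Of 9 tested markers 8 were lower with ozone in C3H/HeJ and 6 in C3H/HeOuJ, by medians of -0.21 and -0.19 against medians of 0.01 and 0.02 over all probe sets. Chil3, a chitinase-like gene of macrophages, passed and fell by 1.19 (SE 0.18, adjusted p 0.0464 in limma) with ozone in C3H/HeOuJ, from 7031 and 4978 to 2719 and 2459. The macrophage gene Cd68 gave 0.41 (SE 0.18, adjusted p 0.31) there and was higher in C3H/HeOuJ between the strains in ozone, at 1.29 (SE 0.18, adjusted p 0.0329 in limma), and averaged over exposures, at 0.94 (adjusted p 0.0322 in limma). Their part in the calprotectin values was not tested.

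Lactoferrin, the iron-binding protein of specific granules, gave the most even values of the group. Ltf read 526 and 510.1 in C3H/HeJ air, 675 and 717 in C3H/HeJ ozone, 489.7 and 449.8 in C3H/HeOuJ air and 631 and 768 in C3H/HeOuJ ozone. No air array reached any ozone array, and the 2 ozone groups overlapped. The log2 change was 0.43 (SE 0.22) in C3H/HeJ and 0.57 (SE 0.22, adjusted p 0.261) in C3H/HeOuJ, and 0.50 (SE 0.15, 95% interval 0.15 to 0.85, adjusted p 0.397) over both. The 2 strains' effects differed by 0.14 (SE 0.31). The strain difference in ozone was 0.00 (SE 0.22, 95% interval -0.49 to 0.50). The groups thus ran C3H/HeOuJ ozone, C3H/HeJ ozone, C3H/HeJ air and C3H/HeOuJ air, with means of 699.7, 696, 518 and 469.8.

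Camp, the precursor of the antimicrobial peptide CRAMP, read 728 and 702 in C3H/HeJ air and 1109.9 and 1189.6 in C3H/HeJ ozone. In C3H/HeOuJ it read 832 and 842 in air and 565 and 847 in ozone. Both C3H/HeJ ozone arrays stood above the other 6 arrays, and the C3H/HeOuJ ozone arrays lay on either side of the air arrays. The log2 change with ozone was 0.68 (SE 0.22, adjusted p 0.98) in C3H/HeJ and -0.28 (SE 0.22, adjusted p 0.581) in C3H/HeOuJ. Their difference of -0.96 (SE 0.31, 95% interval -1.66 to -0.26) had an unadjusted p of 0.0131 and an adjusted p of 0.311 in limma, so the ozone effects were not shown to differ. In ozone, Camp was 1.66-fold lower in C3H/HeOuJ than in C3H/HeJ, a log2 difference of -0.73 (SE 0.22, adjusted p 0.14). Without the C3H/HeOuJ ozone array 1a, which read 565, that difference was -0.44 (SE 0.15, adjusted p 0.262), and over all alternatives its adjusted p ran from 0.06 to 1.

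Ngp, a cystatin-like protein of the same granules, was dim. It read 46.2 and 72.0 in C3H/HeJ air, 117 and 117 in C3H/HeJ ozone, 83.5 and 95.8 in C3H/HeOuJ air and 116 and 92.1 in C3H/HeOuJ ozone. One C3H/HeJ air array lay below the floor of 69.6, the 20th percentile of all values, to which lower values were raised. The log2 change in C3H/HeJ, 0.72 (SE 0.28, adjusted p 1), therefore understates the difference in deposited intensities. In C3H/HeOuJ it was 0.21 (SE 0.28), and the arrays overlapped.

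**Figure D2:**
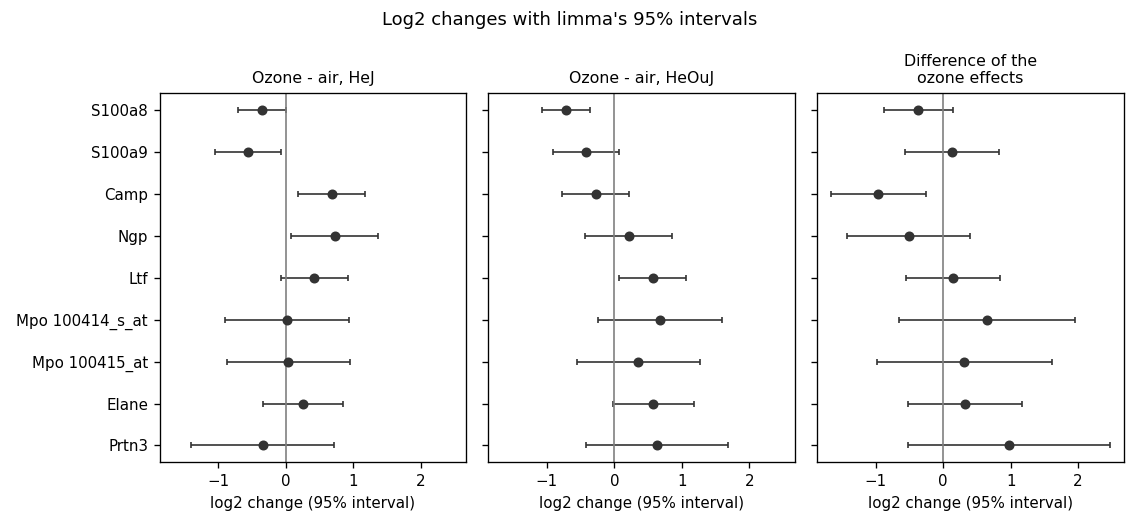
Log2 change (x axis) of each member probe set with ozone in C3H/HeJ, with ozone in C3H/HeOuJ, and the second minus the first. Points are limma estimates and bars their 95% intervals, not adjusted for the number of probe sets. In C3H/HeJ the intervals of Camp and Ngp lie above 0 and that of S100a9 below. In C3H/HeOuJ that of Ltf lies above 0 and that of S100a8 below. For the difference only that of Camp excludes 0, lying below it. No adjusted p was under 0.05.

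Neutrophil elastase, a serine protease of azurophil granules, read 359 and 377 in C3H/HeJ air and 415 and 466 in C3H/HeJ ozone. In C3H/HeOuJ Elane read 333 and 380.5 in air and 496 and 568 in ozone. The highest air array, at 380.5, stood below the lowest ozone array, at 415, and the C3H/HeOuJ ozone arrays were the highest of all 8. The log2 change was 0.26 (SE 0.26) in C3H/HeJ, 0.58 (SE 0.26, adjusted p 0.336) in C3H/HeOuJ and 0.42 (SE 0.19, 95% interval -0.01 to 0.84, adjusted p 0.546) over both. The difference of the ozone effects was 0.32 (SE 0.37, adjusted p 0.795). Elane and Ltf had a Pearson r of 0.852 and a Spearman rho of 0.76 over the 8 arrays, with r of 0.845 after the 2 arrays farthest from the median of Ltf were left out. With the group means taken out, r was 0.41. Each also ran against S100a8, with r of -0.874 for Elane and -0.811 for Ltf, but with the group means taken out r was -0.283 for Elane and 0.495 for Ltf. These values describe 8 arrays that share their groups.

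**Figure D3:**
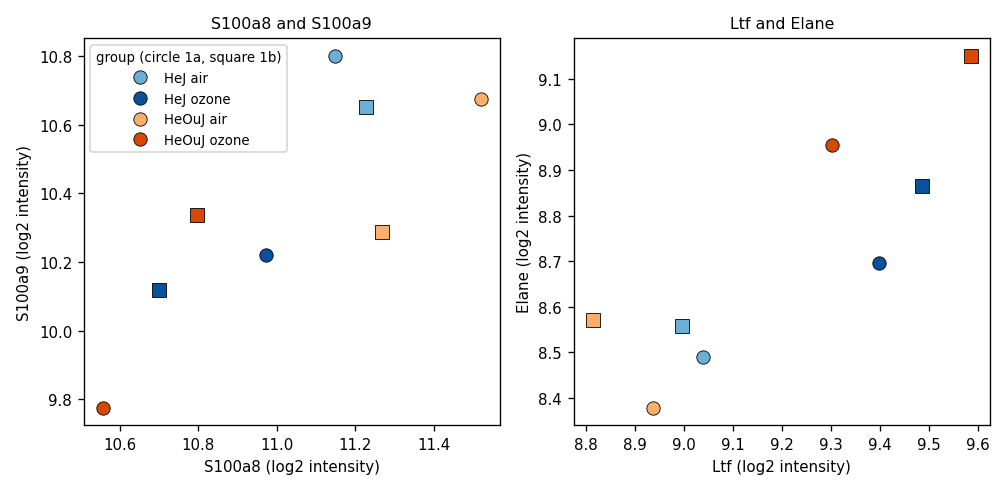
Log2 intensity of S100a9 against S100a8 (left) and of Elane against Ltf (right), 1 point for each of the 8 arrays, coloured by group. The 4 ozone arrays lie to the left of the 4 air arrays in the S100 panel and to the upper right of them in the Ltf and Elane panel.

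Proteinase 3 and myeloperoxidase, the other azurophil genes, were too uneven between replicate arrays to order the groups. Prtn3 read 80.5 and 155 in C3H/HeJ air, 22.4 and 112 in C3H/HeJ ozone, 128 and 70.3 in C3H/HeOuJ air and 171 and 126 in C3H/HeOuJ ozone. Air and ozone arrays overlapped in both strains, and the log2 changes were -0.34 (SE 0.46) and 0.63 (SE 0.46). In ozone alone, both C3H/HeOuJ arrays lay above both C3H/HeJ arrays, with a difference of 0.74 (SE 0.46, adjusted p 0.451). Its residual spread was larger than that of 83.4% of the probe sets, against 9.0% for Ltf and 9.34% for Elane.

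Mpo, the peroxidase that makes hypochlorous acid, was read by an s_at probe set, a type that can match more than 1 transcript, and by an ordinary one, which did not give the same picture. By the s_at probe set, Mpo read 22.2 and 21.3 in C3H/HeJ air, 71.4 and 41.9 in C3H/HeJ ozone, 121 and 17.0 in C3H/HeOuJ air and 207 and 104 in C3H/HeOuJ ozone. Only 4 of these 8 values were above the floor, so the level in C3H/HeJ air is known only as a bound. By the ordinary probe set, Mpo was above the floor on all 8 arrays, at 199 and 126, 144 and 184, 158 and 181, and 266 and 176 in the same order of groups. With ozone in C3H/HeOuJ the probe sets gave 0.67 (SE 0.40) and 0.35 (SE 0.40), and between the strains in ozone 1.06 (SE 0.40, adjusted p 0.222) and 0.41 (SE 0.40, adjusted p 0.637), with 1 C3H/HeJ ozone value of the s_at probe set raised to the floor. Their r over the 8 arrays was 0.63, their rho 0.11, and r was 0.14 without the 2 arrays farthest from the median of the s_at values.

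All 9 member probe sets passed the filter on dim values, and the members' counts are read here against the whole array of 10953 tested probe sets. In C3H/HeJ no member passed for ozone against air, where 0% of all probe sets did, and 3 of 9 had an unadjusted p under 0.05, against 4.35% of all. The 3 were S100a9, Camp and Ngp. In C3H/HeOuJ no member passed, against 0.456% of all, and 2 of 9, S100a8 and Ltf, had an unadjusted p under 0.05, against 15.5%. For the difference of the ozone effects the counts were 0, against 0%, and 1, Camp, against 11.4%. For the mean ozone effect no member passed, against 0.0183% of all, and 4 had an unadjusted p under 0.05, namely S100a8, S100a9, Ngp and Ltf, against 9.25%. The smallest adjusted p of a member in any of the 7 comparisons was 0.0938, that of S100a8 in C3H/HeOuJ.

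The separation of single arrays gives the same data without a model. For air against ozone over both strains, 3 of 9 members had 4 arrays of the one exposure all above 4 of the other, against 3.23% of all probe sets. Of these, Ltf and Elane were higher in ozone, as were 2.01% of all, and S100a8 was lower, as were 1.22%. Within C3H/HeJ 6 of 9 did not overlap, against 34.4%, and within C3H/HeOuJ 3 of 9, against 41.8%, a share below that of the whole array. The median log2 change of the 9 was 0.04 in C3H/HeJ and 0.35 in C3H/HeOuJ, against 0.01 and 0.02 over all probe sets. In the first, the s_at probe set of Mpo counts at 0.02 although 3 of its 4 values lay under the floor.

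Between the strains no member passed, in air (0.0456% of all did), in ozone (0.977%) or averaged over exposures (0.155%). In air no member had an unadjusted p under 0.05, against 5.71% of all, and the log2 differences, C3H/HeOuJ minus C3H/HeJ, ran from -0.24 for S100a9 to 0.40 for Mpo by its s_at probe set. Arrays of the strains did not overlap for 4 of 9 members in air, against 32.7% of all. In ozone 2 of 9 had an unadjusted p under 0.05, Camp and Mpo by its s_at probe set, against 18% of all, and 5 of 9 did not overlap, against 45.9%. Those 5 were Camp and Ngp, lower in C3H/HeOuJ, and Elane, Prtn3 and Mpo by its s_at probe set, higher. Averaged over the exposures 1 member had an unadjusted p under 0.05, Mpo by its s_at probe set, against 13% of all, and none separated the strains' arrays, against 4.7%.

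The C3H/HeOuJ ozone arrays stood apart in an RNA measure, with an actin 5′ to 3′ control ratio of 0.766 and 0.756 against 0.432 to 0.603 on the other 6 arrays. They also had the 2 highest scores on the first principal component of the tested probe sets, 53.2 for 1a and 19.3 for 1b. Of 14 lung epithelial markers listed, 10 were on the array and tested. Their summed intensity was 160129 to 193954 in C3H/HeJ air and 146124 to 172816 in C3H/HeJ ozone, and 141582 to 172056 in C3H/HeOuJ air and 220487 to 231390 in C3H/HeOuJ ozone. The largest part of the C3H/HeOuJ rise was the surfactant gene Sftpc, at 55299 and 39537 in air and 100639 and 77498 in ozone. With ozone in C3H/HeOuJ 6 of the 10 were higher and 4 lower, with a median log2 change of 0.20. The 2 past the threshold were epithelial keratins, Krt18 at 1.67 (SE 0.17, adjusted p 0.0136 in limma) and Krt8 at 0.99 (SE 0.15, adjusted p 0.0464 in limma). Krt18 was also higher in C3H/HeOuJ between the strains in ozone, at 1.11 (SE 0.17, adjusted p 0.0454 in limma). The summed intensity of 9 lung endothelial markers was 58471 to 64659 in C3H/HeOuJ air and 54344 to 57244 in C3H/HeOuJ ozone. In C3H/HeJ it overlapped, at 59513 to 65780.5 in air and 59341 to 61425 in ozone. In ozone 7 of the 9 were lower in C3H/HeOuJ than in C3H/HeJ and 2 higher. Their median log2 difference was -0.43, and none passed. The part of epithelial or endothelial RNA in the C3H/HeOuJ ozone values of the members and of the other neutrophil genes was not tested. With that ratio as a covariate, the log2 change of S100a8 in C3H/HeOuJ was -0.41 (SE 0.40), that of Ltf 0.51 (SE 0.57) and that of Elane 0.61 (SE 0.70), and the adjusted p was 1 for each. The change of the ordinary Mpo probe set went from 0.35 (SE 0.40) to -0.89 (SE 0.93) in that fit. The ratio was highest in C3H/HeOuJ ozone, so that fit can hardly separate it from the group. The part of the ratio in the members' values was otherwise not tested. Neutrophil surface markers were at hand in part. The neutrophil chemokine receptor Cxcr2 read 24.7 to 145. Its means in air and ozone were 61.4 and 45.1 in C3H/HeJ, and 84.3 and 93.9 in C3H/HeOuJ. Each group had Cxcr2 values under the floor, among them both of C3H/HeJ ozone (63.0 and 27.2), so these means do not order the groups. The granulocyte colony factor receptor Csf3r was brighter. Its means in air and ozone were 1606 and 2131 in C3H/HeJ, and 1755 and 1846 in C3H/HeOuJ, and its arrays overlapped in each strain. The neutrophil antigen Ly6g read 97.0 to 232. In C3H/HeJ Ly6g was higher on ozone arrays (163 and 168 against 232 and 221), at 0.45 (SE 0.42), and in C3H/HeOuJ its arrays overlapped. Of 13 tested receptors and adhesion molecules, 7 were higher with ozone and 6 lower, in each strain. The summed intensity of 6 erythroid markers, a measure of blood in the tissue, was 75357 to 89875 in C3H/HeJ air and 75817 to 87098 in C3H/HeJ ozone, where it overlapped. In C3H/HeOuJ it was 70137 to 83633 in air and 90755 to 125587 in ozone. Most of that difference was 1 globin, Hba-a1, at 33824 and 29657 in air and 68778.5 and 44782 in ozone, and without it the sum overlapped, at 40480.1 to 49808 and 45973 to 56808. Its part in the C3H/HeOuJ values was not tested. Of 9 B and plasma cell markers, the immunoglobulin chain Ighm was lower in C3H/HeOuJ in air, at -1.51 (SE 0.13, adjusted p 0.00551 in limma), and averaged over exposures, at -0.72 (adjusted p 0.0265 in limma). The average reflects air, since the mean intensities of Ighm in ozone were 3545 in C3H/HeJ and 3740 in C3H/HeOuJ. Igha was higher in C3H/HeOuJ in ozone, at 1.37 (SE 0.17, adjusted p 0.0251 in limma), and averaged over exposures, at 0.96 (adjusted p 0.0304 in limma). With ozone 8 of the 9 fell in C3H/HeJ (median log2 change -0.58) and 3 in C3H/HeOuJ (median 0.08), and none passed. Their summed intensity was 16316 to 17163 in C3H/HeJ air and 9310 to 9986 in C3H/HeJ ozone. In C3H/HeOuJ it overlapped, at 12847 to 13119.5 in air and 11854 to 14890 in ozone. The part of these cells in the members' values was not tested.

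Other genes with roles in neutrophils, taken from lists of genes by role, showed their calls in 1 comparison of single groups, between the strains in ozone. The lists were not limited to transcripts of neutrophils alone, and which cells of the lung gave these values was not tested. Of 16 tested genes for other granule and secreted proteins, 14 were higher in C3H/HeOuJ ozone than in C3H/HeJ ozone (median log2 difference 0.50, against 0.02 over all probe sets, of which 52.1% were higher). The 2 lower genes were the neutrophil antigen Ly6g, at -0.59 (SE 0.42), whose arrays did not overlap, and Serpinb1a, at -0.51 (SE 0.48). Of the 16, 6 had an unadjusted p under 0.05, against 18% of all, and 2 passed, both higher, against 0.977%. Lcn2, the siderophore-binding lipocalin of specific granules that epithelium also makes, read 899 and 918 in C3H/HeJ ozone and 2695 and 2387 in C3H/HeOuJ ozone. Its difference was 1.48 (SE 0.17, adjusted p 0.0236 in limma), or 2.79-fold, and a second probe set gave 0.19 (SE 0.26, adjusted p 0.76). Lcn2 also passed for the strain difference averaged over exposures, at 0.94 (adjusted p 0.0304 in limma). Lrg1, a secreted leucine-rich glycoprotein, read 2473 and 2448 against 4191 and 4655, a difference of 0.84 (SE 0.12, adjusted p 0.0454 in limma).

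Oxidase and adhesion genes gave 1 call each. All 5 tested subunits and partners of the phagocyte oxidase, the enzyme of the respiratory burst, were higher in C3H/HeOuJ ozone (median 0.93), against 52.1% of all probe sets. In air 4 of the 5 were already higher in C3H/HeOuJ, with Ncf1 at 1.94 in air and 2.01 in ozone and Cybb at 0.88 and 1.05, none of them past the threshold. In ozone 1 passed, against 0.977% of all, Cyba, at 0.93 (SE 0.16, adjusted p 0.0483 in limma). A second probe set of Cyba gave -0.05 (SE 0.16). Of 13 receptors and adhesion molecules 6 were higher and 7 lower, and Itgb2, the shared chain of leukocyte integrins, passed at 1.32 (SE 0.23, adjusted p 0.0479 in limma). Of 8 neutrophil chemoattractants and inducers 7 were higher, and Tnf passed. It read 51.3 and 57.1 in C3H/HeJ ozone, both under the floor, and 231 and 247 in C3H/HeOuJ ozone, so that it was at least 3.43-fold higher (adjusted p 0.0479 in limma). Each of these 5 calls was lost when any C3H/HeOuJ array or either C3H/HeJ ozone array was left out (adjusted p 0.0555 to 0.357), and without either C3H/HeJ air array that of Lcn2 alone was kept. Each was also lost with no intensity trend, with only the 4 ozone arrays fitted and with the actin ratio as a covariate. In the covariate fit Itgb2 gave 0.03 (SE 0.78), Lcn2 0.42 (SE 0.57), Cyba 0.42 (SE 0.63), Lrg1 1.06 (SE 0.50) and Tnf 1.86 (SE 1.21). Without the covariate the SEs were 0.12 to 0.30. The ratio was highest on the C3H/HeOuJ ozone arrays, so that fit can hardly separate it from the group. A call lost there does not by itself mean a smaller difference. C3H/HeJ ozone and C3H/HeOuJ ozone are the only groups in this comparison, so the arrays whose actin ratio stood apart are 1 of its 2 sides.

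**Figure D4:**
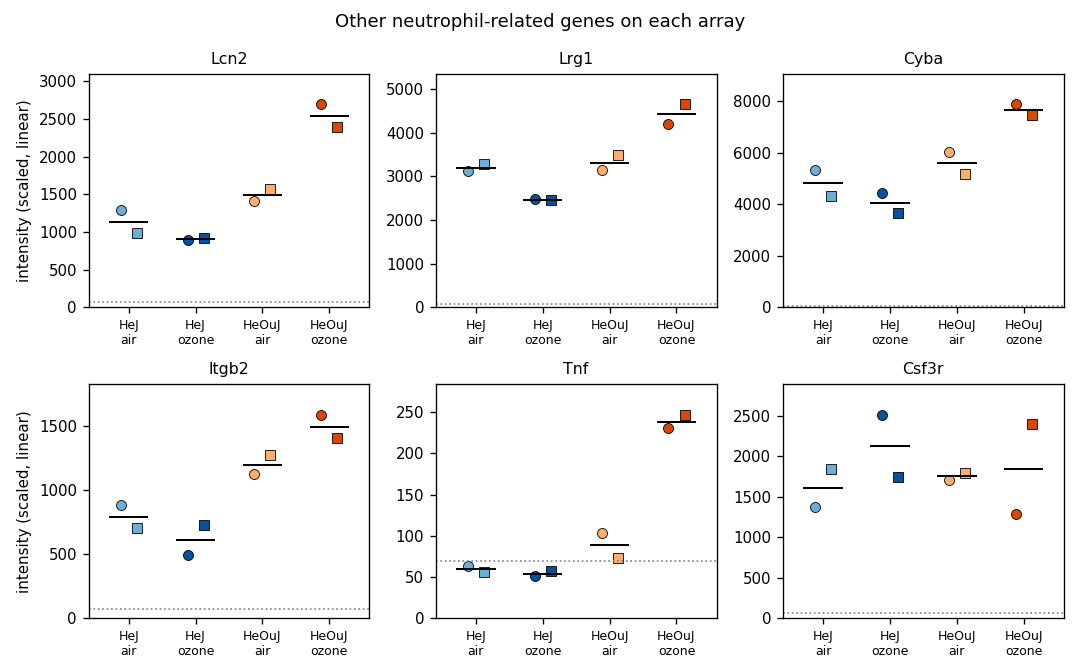
Deposited intensity (linear scale) of 5 listed genes past the threshold between the strains in ozone, and of the granulocyte colony factor receptor Csf3r, on each of the 8 arrays. Circles are arrays 1a, squares 1b, bars means of 2 arrays and the dotted line the floor; Lcn2, Lrg1, Cyba, Itgb2 and Tnf are highest on the 2 C3H/HeOuJ ozone arrays, while the Csf3r arrays overlap.

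For ozone against air, no gene of these lists passed in either strain. In C3H/HeJ 13 of the 16 other granule and secreted proteins were lower with ozone and 1, Orm1, was tied at the floor (median -0.10), and in C3H/HeOuJ 13 were higher (median 0.34), while 51.2% and 51.9% of all probe sets were higher. In C3H/HeOuJ Lcn2 gave 0.77 (SE 0.17, adjusted p 0.0939) and in C3H/HeJ -0.31 (SE 0.17). Neutrophil collagenase, Mmp8, was near the floor at 32.1 to 84.0. Of 8 chemoattractants and inducers 6 were lower in C3H/HeJ, with Tnf tied at the floor, and 4 in C3H/HeOuJ. Tnf gave the smallest p of that list in C3H/HeOuJ, at 1.46 (SE 0.30, adjusted p 0.0781 in limma). The chemokine Ccl3 gave -0.87 and 0.70 in C3H/HeJ and C3H/HeOuJ. The interleukin Il1b gave -0.96 and -0.99, the colony factor Csf3 -0.16 and -1.48, and the neutrophil chemokines Cxcl1 -0.43 and -0.07, Cxcl2 -0.65 and -0.10 and Cxcl5 0.38 and 1.09, in the order C3H/HeJ and C3H/HeOuJ. The transcription factors of granulocyte formation, 7 tested, were lower for 5 in each strain. Spi1, which encodes PU.1, gave -0.12 and -0.23, and Cebpa, which starts granulocyte fate, 0.05 and -0.52. Fpr2, a relative of Fpr1, had mean intensities of 248 in air and 299 in ozone in C3H/HeJ, and of 541 and 275 in C3H/HeOuJ (adjusted p 0.216 in limma).

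Among the other S100 genes values lay on both sides of 0. Of 10 tested, 8 were higher with ozone in C3H/HeJ and 6 in C3H/HeOuJ, none past the threshold, with medians of 0.06 and 0.15. S100a6, which is broadly expressed, gave 0.15 and 0.57 (SE 0.17 each), S100a4, a marker of fibroblasts and leukocytes, -0.11 and 0.22, and S100b, a glial protein, -0.53 and -1.05. S100a13 and S100g were lower in C3H/HeOuJ alone by their values, at -0.24 and -0.58. Whether calprotectin differed from these genes was not tested. Of the 3 tested calprotectin receptors and co-receptors, Ager gave -0.20 and 0.27 and Cd14 0.06 and 0.41. The other, Cd36, had mean intensities of 672 in air and 757 in ozone in C3H/HeJ. In C3H/HeOuJ Cd36 went the other way, with 1100 in air and 834 in ozone. None of them passed for ozone against air.

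Genes whose array-by-array pattern was most like that of the members were sought among 9676 other single-gene probe sets by Pearson r over the 8 arrays. For the mean of S100a8 and S100a9 they were Tm4sf1, Rnase4 and Daxx (r of 0.937 each), Dhx9 (0.933) and Klrc1 (0.922). For the mean of Camp, Ngp and Ltf they were Rbbp7 (0.962), the replication licensing factor Cdc6 (0.926), the clock factor Dbp (0.919), Gnao1 (0.908) and Oga (0.901). For the mean of Mpo, Elane and Prtn3 they were Syt8 (0.962), complement C2 (0.961), Camk2d (0.957), Pithd1 (0.956) and Lamtor2 (0.955). The probe sets averaged had r with each other of 0.37 to 0.58 for Camp, Ngp and Ltf. For the 4 of Mpo, Elane and Prtn3 it was 0.17 to 0.65. With the group means taken out, r was 0.906 for Camp with Ltf, but -0.842 for Camp with Ngp and -0.962 for Ngp with Ltf. For the 4 of Mpo, Elane and Prtn3 it then ran from -0.844 to 0.572. Some values lay under the floor, such as Syt8 in C3H/HeJ, at 44.3 to 55.6, and Dbp in C3H/HeJ air, at 20.4 to 21.5. With so many probe sets and 8 arrays, values of this size describe these arrays only, and none of the 15 belonged to the lists of neutrophil genes.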

How the data were processed

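Total RNA of whole lung was read on 8 Affymetrix arrays, 2 for each of 4 groups taken from the titles and descriptions. The deposited tables hold a linear intensity for each probe set. Their 2% trimmed means lay between 800.39 and 800.41, a common scaling that no label describes, and the software that made them is not stated in the labels. Dropping the control features left 12422 of 12488 probe sets. Values under the 20th percentile, 69.6, were raised to this floor before log2 was taken, and the 10953 probe sets that exceeded it on 2 or more arrays were tested.

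One limma model (limma 3.58.1, R 4.3.3) held a mean for each of the 4 groups, with variances moderated along an intensity trend, 4 residual and 4.54 prior degrees of freedom. Adjusted p-values are Benjamini-Hochberg over all tested probe sets in each of 7 comparisons, with a threshold of 0.05. With 2 arrays against 2 the median standard error was 0.30, so the number of arrays limits precision. The model was tested on simulated data. The 16 alternatives covered normalisation, floor, filter, variance trend, arrays fitted, the replicate letters as a block, an actin covariate and leaving out each array. The letters were not taken to pair arrays.

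Gene names came from a platform annotation of 2016, and lists used 1 probe set per gene. Every member was named, and from other lists any gene past the threshold and up to 3 of smallest p. For likeness the 5 genes of highest r were named. Further genes, named for their role, were chosen after their values were seen. The members and lists were chosen with earlier results of these data known. Figures were drawn with matplotlib 3.10.9.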

Additional observations from a re-analysis of the deposited data

How the results depend on the processing

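The count of members past the threshold was 0 in all 7 comparisons under every alternative run. This includes the fit with the replicate letters as a block, a replicate block that gave 0 members in each. The 1a minus 1b differences of 2 groups correlated by -0.01 to 0.14, although 1a lay above 1b in all 4 groups on the first principal component and in the Gapdh 5′ to 3′ ratio. Over 63 member values and 16 alternatives there were 967 refits, and none passed. The sign changed in 41, of which 39 had a reported value within 1 standard error of 0 and none one over 2. Leaving out 1 array, S100a8 in C3H/HeOuJ ran from -0.84 to -0.59 (adjusted p over all alternatives 0.0824 to 1), the mean ozone effect of Ltf from 0.43 to 0.57, and the Camp difference of ozone effects from -1.25 to -0.67. S100a9 in C3H/HeOuJ ran from -0.71 to -0.14.

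Counts over all probe sets moved more. The 50 for ozone in C3H/HeOuJ became 88 with a floor at the 30th percentile, and the 107 between the strains in ozone became 57 with no filter on dim probe sets and 185 with the letters as a block. Both were 0 with no intensity trend, with the actin covariate and with only the 4 arrays of the comparison, and leaving out 1 array gave 0 to 22 and 0 to 31. With no filter the counts of the other comparisons went from 0 to 8 for ozone in C3H/HeJ, 0 to 10 for the difference of ozone effects, 2 to 14 for the mean ozone effect, 5 to 11 between the strains in air and 17 to 40 averaged over exposures. With the letters as a block the last was 29 and the mean ozone effect 0. With no trend they were 7 and 0, and with the covariate all 7 counts were 0. A floor at the 10th or 30th percentile gave 5 for the mean ozone effect and 3 for the difference of effects, and quantile normalisation gave 3 for the latter. The number of arrays limits what could be called.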
